A study of Homo sapiens with 10 samples.

Results

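MYCN, MYCNOS, DDX1, NBAS and MEIS1 are 5 genes of the short arm of chromosome 2. Their polyadenylation sites were examined in IMR-32, a human neuroblastoma cell line, through all peaks of a poly(A) 3′-seq peak list whose summit lay in the GENCODE 44 body of one of the genes or up to 600 bp past its 3′ end. The rule took 192 of the 178837 peaks in the list, of which 113 belonged to NBAS, 48 to MEIS1, 25 to DDX1, 4 to MYCN and 4 to MYCNOS, with 2 peaks shared by the last pair. All cells carried a lentiviral pLKO.1 construct and had been selected with puromycin. CDK12 was targeted by the shRNAs sh22 and sh98 (4 libraries), CDK13 by sh701 and sh704 (4 libraries), and the control construct was shGFP (2 libraries). The deposited list was called once on the merged, downsampled reads of the 10 libraries, with neither a strand nor any value for a single library. The shCDK12, shCDK13 and shGFP cells therefore cannot be told apart in any value given here, there is no replicate spread, no comparison was tested across samples, and every interval covers counting error only.

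MYCN is a basic helix-loop-helix transcription factor that binds DNA together with MAX, and its amplification marks high-risk neuroblastoma. MYCNOS is an antisense long noncoding RNA that overlaps the start of MYCN. DDX1, a DEAD-box RNA helicase, and NBAS, a large protein of the tether that receives Golgi-derived vesicles at the endoplasmic reticulum, are the neighbours of MYCN and are often carried along when MYCN is amplified. MEIS1, a homeodomain protein of the TALE class that works with PBX and HOX proteins, lies in another band of the same arm and has been described as amplified in IMR-32 cells. Copy number was not measured in these data, so the word amplicon describes prior knowledge of the locus and not a result. In poly(A) 3′-seq each read starts at or next to a cleavage site, where the pre-mRNA is cut and polyadenylated a short distance downstream of a hexamer, most often AATAAA or ATTAAA. The oligo(dT) primer can also anneal to A-rich stretches inside a transcript, which is why the bases downstream of each peak were read.

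On GRCh38, NBAS lies on the minus strand of chromosome 2 from 15166916 to 15561340 and DDX1 on the plus strand from 15591178 to 15634346, with 29.8 kb between their starts. MYCN lies on the plus strand from 15940550 to 15947007, 306 kb past the end of DDX1. MYCNOS lies on the minus strand from 15918350 to 15942249 and overlaps MYCN over 1.70 kb. MEIS1 lies on the plus strand from 66433452 to 66573869, 50.5 Mb from MYCN.

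The 3′-most peaks of the coding genes, and in DDX1 also its highest peak in a transcript end window, are shown first, because the depth values below refer to them. Each line gives 30 bases of GRCh38 on the strand of the gene, with a hexamer in capitals where AATAAA or ATTAAA lay in the 40 bases that end at the 3′ edge of the peak. Peaks are numbered from the 5′ end of each gene. The window of MYCN-4 is chr2:15946995-15947024, that of DDX1-24 is chr2:15631079-15631108, that of DDX1-25 is chr2:15634629-15634658, that of NBAS-113 is chr2:15166911-15166940 and that of MEIS1-48 is chr2:66571845-66571874.
MYCN-4: taaaATTAAAtgatgcaactcaaccttttc
DDX1-24: tgaaAATAAAtttgatgactatattttcat
DDX1-25: ttgaATTAAAgagcctgaatgttatgaaca
NBAS-113: tgcaAATAAAactgtatggaaacgatgagc
MEIS1-48: gctcttcacttcctccagaagcctccttac

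The hexamer began 24 bases before the 3′ edge in MYCN-4, 22 bases before it in DDX1-24 and DDX1-25, and 32 bases before it in NBAS-113. MEIS1-48 had neither hexamer in this window, and its summit lay 480 bp past the nearest annotated transcript end before it, with 4 annotated ends still to follow. Over the plus strand of chromosome 2, 6.35% of all 40-base windows held one of both hexamers, and 47.8% of the chromosome 2 peaks in transcript end windows did. A transcript end window runs from 200 bp upstream to 600 bp downstream of any annotated transcript end. The 5 genes had 17 peaks in such windows and 6 of them had a core hexamer, namely the MYCN peak, 2 of 3 in DDX1, 3 of 8 in NBAS, 0 of 4 in MEIS1 and 0 of 1 in MYCNOS. The presence of the letters does not show that they were used, nor their absence that another signal was.

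Intronic sites are shown next, since most peaks of NBAS and MEIS1 were intronic. For each gene these are the peak with the highest pileup among those with a core hexamer 15 to 35 bases before the 3′ edge and fewer than 7 A in the 10 bases after it (hexamer in capitals) and the peak with the highest pileup among those with at least 7 A in those 10 bases and no core hexamer (the 10 bases in capitals). Each line has 70 bases, 50 up to the 3′ edge and 20 past it. MYCN-3, at chr2:15944498-15944567, is in intron 2, and MYCN had no intronic peak of the A-rich kind. DDX1-5 is at chr2:15598438-15598507, and for DDX1 only this kind is shown. NBAS-13 is at chr2:15529846-15529915 and NBAS-90 at chr2:15257382-15257451, both on the minus strand. MEIS1-44 is at chr2:66556224-66556293 and MEIS1-36 at chr2:66530156-66530225.
MYCN-3: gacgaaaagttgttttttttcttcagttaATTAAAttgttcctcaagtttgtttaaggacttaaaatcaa
DDX1-5: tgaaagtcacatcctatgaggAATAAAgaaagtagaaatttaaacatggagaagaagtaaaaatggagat
NBAS-13: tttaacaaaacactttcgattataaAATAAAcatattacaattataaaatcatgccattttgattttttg
MEIS1-44: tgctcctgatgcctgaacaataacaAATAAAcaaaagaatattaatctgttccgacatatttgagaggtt
NBAS-90: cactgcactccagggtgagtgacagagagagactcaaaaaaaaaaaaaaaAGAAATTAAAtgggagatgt
MEIS1-36: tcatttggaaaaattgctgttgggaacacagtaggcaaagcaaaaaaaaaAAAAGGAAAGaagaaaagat

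MYCN, the transcription factor, held 4 peaks in a gene of 6.46 kb. The depth of a peak is given as its pileup, beside the background that the peak caller estimated around it. Both were recovered from the deposited fold and p-value. The pileup counts extended reads with distinct positions over the summit, at most 100 per strand, and levels off at strong sites. At the 3′ end of the last exon, exon 3, MYCN-4 had a pileup of 73 reads over a background of 7.37. MYCN-3, in intron 2, had 47 reads over 11.4. MYCN-2 and MYCN-1, both in intron 1, had 94 reads over 8.66 and 25 reads over 8.6. The highest pileup thus stood in intron 1 and not at the 3′ end, which does not show that more reads fell there. In this part of intron 1 the antisense gene MYCNOS overlaps MYCN, so that without strand both shared peaks may come from either gene.

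Neither MYCN-1 nor MYCN-2 had any of the 12 hexamers of the usual list in the 50 bases before its edge, on the plus or the minus strand. MYCN-3 had ATTAAA 20 bases before its edge on the strand of MYCN and 3 A in the 10 bases after it. No further peak followed MYCN for 8.23 kb, where a peak with a pileup of 20 reads stood.

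MYCNOS, the antisense RNA, held 4 peaks, of which 2 were the shared MYCN-1 and MYCN-2. MYCNOS-3, from 15939841 to 15940288, had 74 reads over a background of 7.78 and covered 3 annotated ends of MYCNOS transcripts. Its summit was 618 bp before the start of MYCN. MYCNOS-4 had 6 reads over 0.310 and lay in intron 1, where MYCNUT, another noncoding gene, runs on the opposite strand. Read on the plus strand, all 10 bases after the edge of MYCNOS-4 were A, against 1 of 10 on the strand of MYCNOS. No peak lay at the far annotated end of MYCNOS, and the nearest peak past it was 2.81 kb away, with 17 reads.

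DDX1, the RNA helicase, held 25 peaks in 43.2 kb, of which 3 were in transcript end windows, 8 in exons and 14 in introns of all annotated transcripts. Every one of the 4 annotated transcript ends had a peak in its window, and the ends at 15631097 and 15631101 shared DDX1-24. With windows of 100 bp on each side 1 such peak remained. How often windows of this size elsewhere in the gene hold a peak was not computed. The highest transcript end peak, DDX1-24 in exon 26, had 63 reads over 5.74, and DDX1-25, 223 bp past the far annotated end, had 23 reads over 4.0. The highest pileup of the gene, 82 reads over 6.24, was at DDX1-4 in intron 4, a peak without any of the 12 hexamers and with 6 A in the 10 bases downstream. DDX1-21 in intron 19 had 55 reads over 7.37 and DDX1-5 in intron 5 had 48 reads over 6.41. The lowest pileup was 12 reads, and the median over chromosome 2 peaks was 9 reads. At the median background of DDX1, 5.49, a peak needs 14 reads to pass the weakest p-value in the list. The calling limit thus bears on this lowest value, which is no measure of depth. Peaks of any class fell into 12 of the 25 introns of the MANE transcript, the reference transcript of the gene.

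NBAS, the tether protein, held 113 peaks in 394 kb, with 99 in introns, 6 in exons and 8 in transcript end windows. The 3′ end peak NBAS-113, in exon 52, had the highest pileup of the gene, 46 reads over 1.89, and its deposited fold of 16.3, which is the pileup plus 1 over the background plus 1, was the highest of all 192 peaks. The peaks had a lowest pileup of 6 reads, a median of 16 and a highest of 46. The next highest were NBAS-19, in an exon of a transcript other than the MANE one, with 35 reads, and NBAS-34 in a transcript end window, with 34. Of the 18 annotated ends, 13 had a peak in their window, through the 8 transcript end peaks. The ends from 15166916 to 15166978 all shared NBAS-113. How often windows of this size elsewhere in the gene hold a peak was not computed. Peaks of any class lay in 32 of the 51 introns of the MANE transcript. The largest number in 1 intron, 11, was in intron 44, which at 36.8 kb is also the longest.

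NBAS peaks did not gather at one end of the gene. From the 5′ to the 3′ end, its 5 segments of 78.9 kb held 27, 26, 20, 19 and 21 peaks. The median background at the summits was 2.12 and 2.29 reads in the first pair of segments and 1.65, 1.58 and 1.00 in those that followed. The median pileup stayed between 14.0 and 17.5 reads.

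MEIS1, the homeodomain protein, held 48 peaks in 140 kb, with 41 in introns, 3 in exons and 4 in transcript end windows. Its highest pileup, 39 reads, was at MEIS1-48 in exon 13, 2138 bp before the far annotated end, over a background of 14.5, the highest background of all member peaks. Of 16 annotated ends 5 had a peak in their window, and the far end and the 3 before it had none, so that MEIS1-48 counted as a transcript end peak only through an inner end. The first peak past MEIS1 was 0.674 kb from its end, just outside the window of the rule, and had 106 reads over 22.7. It lay in LINC01798, a noncoding gene on the same strand, in which 6 further peaks with 58 to 89 reads followed within 6.77 kb. Without strand or transcript these reads cannot be assigned to MEIS1 or to LINC01798.

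Along MEIS1 the peaks were spread over 5 of the 12 introns of the MANE transcript. These introns held 45 peaks, some of them classed above as exonic or transcript end peaks through other transcripts. The longest intron, intron 7 with 47.9 kb, held 15 peaks, intron 8 held 11, intron 9 held 9 and intron 6 held 8. The 5 segments of 28.1 kb had 11, 10, 10, 6 and 11 peaks, and the median background was 4.56 in the first and 3.39 in the last, against 1.5 to 1.72 in the 3 between them. At 4 peaks the antisense gene MEIS1-AS2 overlapped MEIS1.

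**Figure D1:**
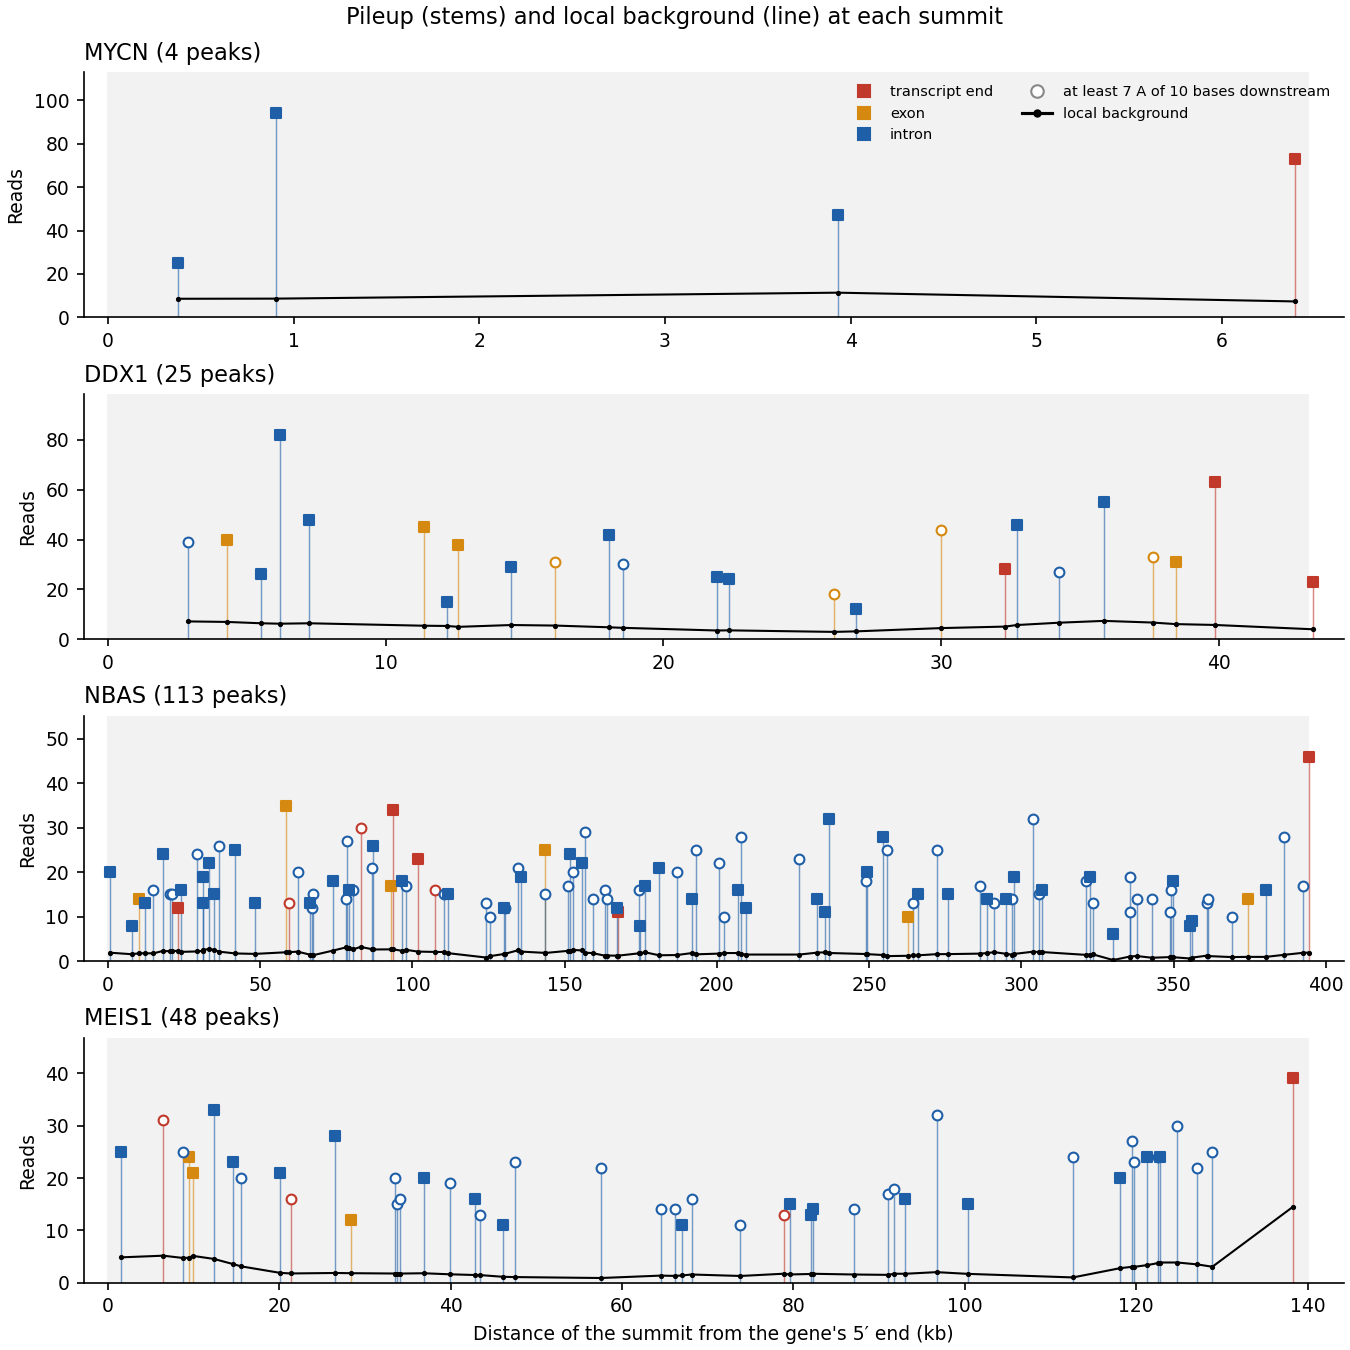
Pileup at the summit (stems, in reads) and local background (black line, in reads) against the distance from the 5′ end (kb) for the 4 peaks of MYCN, 25 of DDX1, 113 of NBAS and 48 of MEIS1. Red, orange and blue mark transcript end, exonic and intronic peaks, open circles mark peaks where 7 or more of the next 10 bases are A, and each point is 1 peak of the pooled libraries. The highest stem is at the 3′ end in NBAS (46 reads), in exon 13 before the far end in MEIS1 (39 reads) and in an intron in MYCN (94 reads) and DDX1 (82 reads).

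When A-rich meant 7 or more A among the next 10 bases, such sequence followed a smaller share of the intronic peaks of NBAS and DDX1 than of those of chromosome 2 as a whole. It was found at 54 of 99 intronic peaks of NBAS (54.5%, 95% Wilson interval 44.8 to 64.0%), at 24 of 41 of MEIS1 (58.5%, 43.4 to 72.2%) and at 3 of 14 of DDX1 (21.4%, 7.57 to 47.6%). Among all intronic chromosome 2 peaks in genes of 1 strand, the share was 68.4% of 10092. The intervals of NBAS and DDX1 end below that share and the interval of MEIS1 includes it. With 6 A of 10 as the limit, NBAS had 75.8% (66.5 to 83.1%), an interval that includes the 79.9% of chromosome 2, and downstream of the summit the intervals of DDX1 (0 to 21.5%) and MEIS1 (2.52 to 19.4%) include its 3.75%. For comparison, 2.89% of all 10-base windows of chromosome 2 hold at least 7 A. Among peaks in transcript end windows, 3 of 8 in NBAS and 3 of 4 in MEIS1 had such sequence downstream. In DDX1, MYCN and MYCNOS it was 0, and on chromosome 2 it was 25.8%. Neighbouring peaks of 1 gene are not independent, and no test was made.

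A core hexamer stood before 15 of the 99 intronic peaks of NBAS (15.2%, interval 9.40 to 23.5%), 6 of 41 of MEIS1 (14.6%, 6.88 to 28.4%) and 3 of 14 of DDX1 (21.4%), against 16.2% of the intronic peaks of chromosome 2. All 3 intervals include that share. Among the intronic peaks without A-rich sequence downstream, 8 of 45 in NBAS, 3 of 17 in MEIS1 and 3 of 11 in DDX1 had a core hexamer, or 17.8%, 17.6% and 27.3%, beside 26.9% on chromosome 2. Depth did not separate the kinds of peak. In NBAS the median pileup was 16 reads for A-rich and for other intronic peaks, and in MEIS1 it was 20 reads for both.

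Per length, DDX1 and MYCN had the most peaks of the 5 genes. The density, in peaks per 10 kb of gene and extension, was 5.71 in DDX1 (95% Poisson interval 3.70 to 8.43), 5.67 in MYCN (1.54 to 14.5), 3.40 in MEIS1 (2.51 to 4.51), 2.86 in NBAS (2.36 to 3.44) and 1.63 in MYCNOS (0.445 to 4.18). The interval of MYCN, which rests on 4 peaks, overlaps all others, and those of MEIS1 and NBAS overlap each other. DDX1 and NBAS do not overlap. Of the 4 MYCN peaks, 2 are shared with MYCNOS and count for both genes, although without strand they may come from either. The ranks of MYCN by density below also include them, and a density without them was not computed.

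Each gene was then compared with the 50 chromosome 2 genes of its class nearest in length. DDX1, NBAS and MEIS1 each exceeded all 50. For DDX1 the neighbours, of 40.3 to 46.1 kb, had a median of 2.16 peaks per 10 kb and a highest value of 3.95, in ING5. For NBAS the neighbours, of 283 to 543 kb, had a median of 1.24 and a highest value of 2.56, in KCNH7. For MEIS1 the neighbours, of 129 to 153 kb, had a median of 1.48 and a highest value of 3.06, in SMC6. The densities of DDX1, NBAS and MEIS1 were 2.65, 2.30 and 2.30 times the median of their neighbours.

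MYCN came 6th of 51, at 2.26 times the median of 2.51 of its neighbours, which ran up to 7.82, and MYCNOS came 12th of 51 among noncoding genes, 30 of which had no peak. The neighbours most like MYCN in density were PTMA (5.51), RDH14 (6.10) and TTC30A (6.31). Those nearest to DDX1 were ING5, METTL21A (3.49) and ACTR2 (3.18). Those nearest to NBAS were KCNH7, THADA (2.19) and MYT1L (2.15), and those nearest to MEIS1 were SMC6, KIF5C (2.96) and CCDC88A (2.71). For MYCNOS they were SPTBN1-AS1 (1.58), LINC01116 (1.48) and STEAP3-AS1 (1.86). Class and length alone set the choice of neighbours. Of these, 32 of MYCN, 39 of DDX1, 43 of NBAS, 40 of MEIS1 and 6 of MYCNOS had a transcript end peak. When neighbours were drawn only from genes with such a peak, DDX1, NBAS and MEIS1 still exceeded all 50, whereas the neighbours with at least the density of MYCNOS went from 22% to 62.0%.

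**Figure D2:**
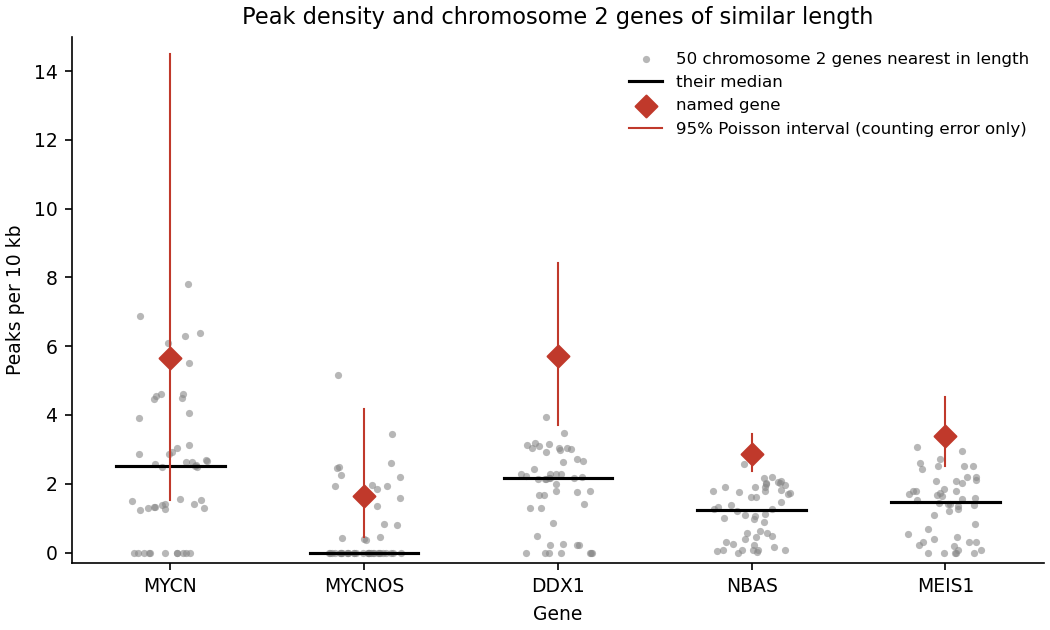
Peaks per 10 kb (vertical axis) of the 5 genes (red diamonds, with 95% Poisson intervals that cover counting error only) and of the 50 chromosome 2 genes of the same class nearest in length to each (grey points, spread sideways for legibility, with their median as a black bar). DDX1, NBAS and MEIS1 lie above all their neighbours, MYCN is 6th of 51 and MYCNOS 12th of 51.

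Local background was high at most of these peaks. The list was called without a control, so the background is estimated from the reads around each summit, rises where peaks are dense, and is no independent measure of the density. A background of at least 1 read was found at 179 of the 192 peaks, namely at all of MYCN and DDX1, 3 of 4 of MYCNOS, 102 of 113 of NBAS and 47 of 48 of MEIS1, against 24.4% of all chromosome 2 peaks. The median was 8.63 reads in MYCN, 8.19 in MYCNOS, 5.49 in DDX1, 1.75 in NBAS and 1.79 in MEIS1, beside 0.560 over chromosome 2. A peak needs more reads to be called over a higher background. The smallest pileup that would pass the weakest p-value in the list is 3 reads at the genome-wide background and 4 at the chromosome 2 median, but 7 at the medians of NBAS and MEIS1, 14 at that of DDX1 and 19 at that of MYCN. The weakest peaks of the list elsewhere would thus not have been called in MYCN or DDX1. Peaks with a −log10 q-value of 20 or more numbered 10 in NBAS, 8 in DDX1, 4 in MEIS1, 2 in MYCN and 2 in MYCNOS, one of which is shared, against 6.5% of the chromosome 2 peaks.

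The space between genes was dense in peaks around both loci. Within 1 Mb on each side of MYCN, 81 summits lay outside every gene and its 600 bp extension, or 92.2 per Mb of intergenic sequence (95% Poisson interval 73.2 to 115). Around MEIS1 there were 106, or 164 per Mb (134 to 199). The intergenic space of chromosome 2 held 16.8 per Mb (16.0 to 17.7), so that the ratios were 5.47 and 9.75. The sides of MYCN differed, with 186 per Mb (146 to 233) before the gene, towards DDX1 and NBAS, and 14.6 per Mb (5.86 to 30) past it. MEIS1 had 103 per Mb (64.3 to 155) before and 195 per Mb (155 to 241) past it.

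To describe the extent of the dense space, blocks were marked where at least 100 kb without any summit bounded a run of summits of at least 500 kb. This definition was chosen after the values had been seen, and by construction it gives each block an empty stretch on both sides. NBAS, DDX1, MYCNOS and MYCN fell into a single block from 14592245 to 15981418, 1389 kb long, with no summit for 709 kb before it and 152.5 kb after it. Between DDX1 and MYCN the block had 96.4 kb without a summit, just under the limit, and with a limit of 50 kb MYCN fell into a run of summits from 15808607 to 15981418 without DDX1 and NBAS. Its 107 intergenic peaks amounted to 210 per Mb (172 to 253), first of the 64 blocks of chromosome 2. MEIS1 fell into a block from 66319022 to 67646049, 1327 kb long, with empty stretches of 745.5 kb before and 200 kb after it. Its 106 intergenic peaks amounted to 202 per Mb (165 to 244), second of the 64. The next block, which holds none of the 5 genes, had 153 per Mb. The order of the first pair depended on the limit, since the run that holds MYCN had 153 per Mb with 50 kb and 169 with 200 kb, while that of MEIS1 stayed at 202.

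In the megabase next to the first block, much of it empty by the choice of the limit, the density was 0 before and 2.1 per Mb past it, with 0 and 1 peak, and next to the second it was 0 and 9.85 per Mb, with 0 and 4 peaks. No intergenic peak in 290.6 kb and in 120.7 kb of such sequence allows up to 12.7 and 30.6 per Mb. Chromosome 2 without both blocks held 14.6 per Mb. By the median background of all peaks in a block, that of MEIS1, with 1.99 reads, was first of 64 and that of MYCN, with 1.55 reads, second.

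In bins of 250 kb with at least 50 kb of intergenic sequence, the bin from 15 Mb, which holds part of NBAS, was first of 552 on chromosome 2 with 265 per Mb, and the bin from 66.75 Mb, past MEIS1, was second with 257. The bin of MYCN itself had 103 per Mb and came 22nd. Over 7902 bins of this size on chromosomes 1 to 22, X and Y, the bins from 15 and 66.75 Mb came 2nd and 3rd. At least 200 per Mb was found in 19 bins, of which 6 were on chromosome 2 and 4 in both blocks. Unknown bases (N) were left out on chromosome 2 only, which can lower the densities elsewhere, so these ranks lean towards chromosome 2. High values were therefore also found elsewhere in the genome.

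**Figure D3:**
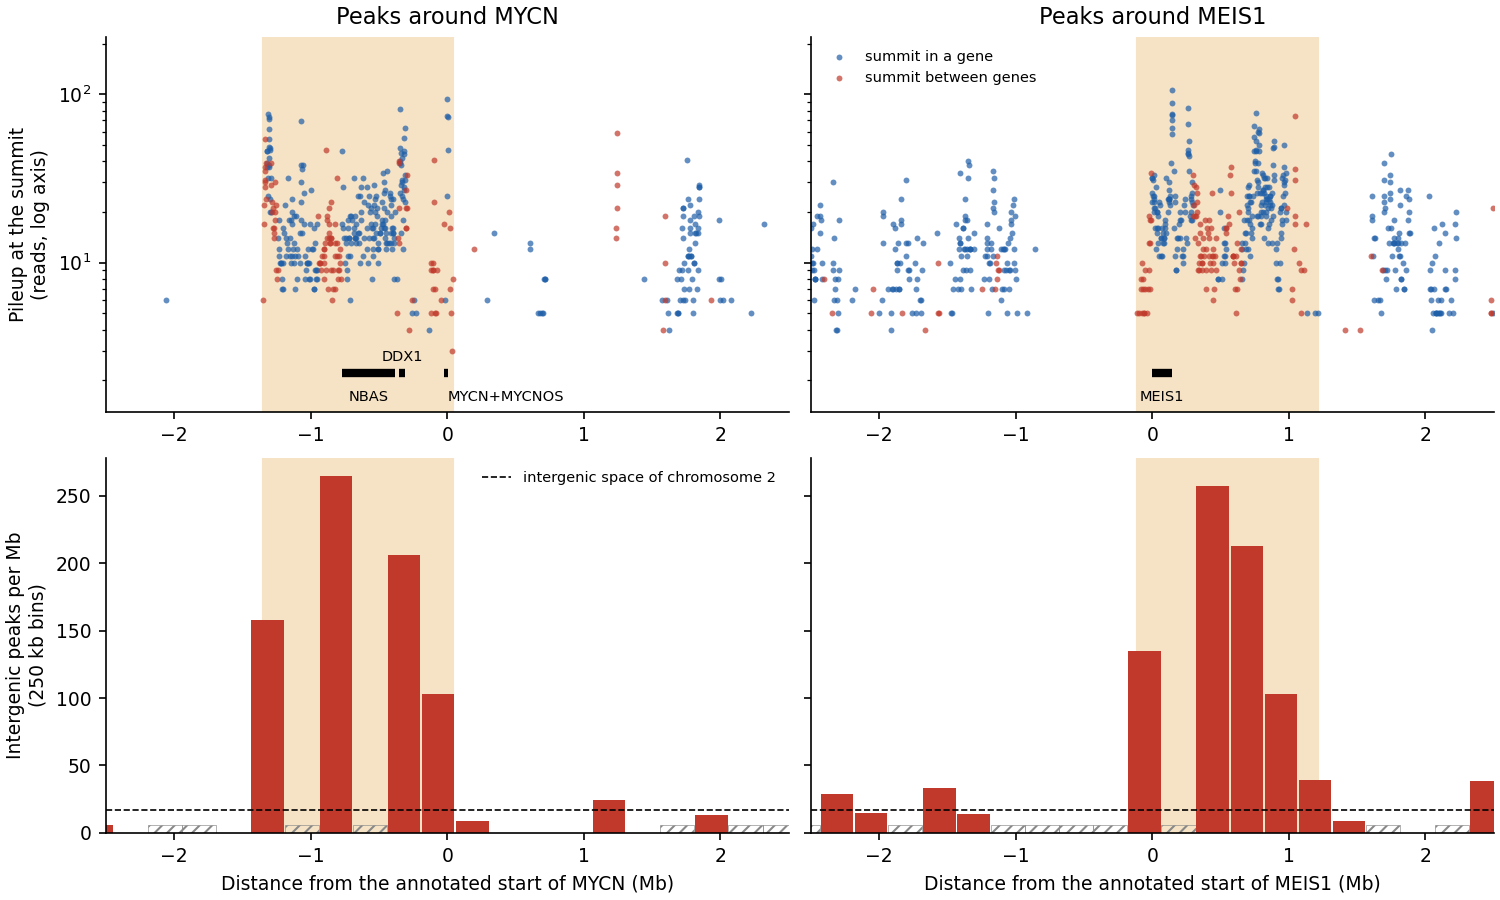
Upper panels show the pileup at each summit (reads, log axis) and lower panels the intergenic peaks per Mb in bins of 250 kb, against the distance from the annotated start of MYCN (left) or MEIS1 (right) in Mb. Black bars mark the genes, shading marks the blocks, hatched bins have less than 50 kb of intergenic sequence, and the dashed line is the intergenic space of chromosome 2 (16.8 per Mb). The bins inside the shading rise to 265 and 257 per Mb, and the neighbouring megabase on each outer side holds 0 to 4 intergenic peaks.

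Genes inside the blocks had more peaks per length than most of those beside them. The blocks were drawn from these same summits, so the contrast is in part built into the grouping and is no separate result. Within 2 Mb of MYCN, the 4 protein-coding genes in the block had 2.86 to 7.48 peaks per 10 kb, with a median of 5.69 and LRATD1 highest, and the 7 outside it had 0 to 3.36, with a median of 1.01 and GEN1 highest. CYRIA, the first protein-coding gene past MYCN, had 0.766. Within 2 Mb of MEIS1, MEIS1 and ETAA1 in the block had 3.40 and 5.21, and the 17 outside it had 0 to 3.74, with a median of 2.32 and LGALSL highest. SPRED2, the last protein-coding gene before MEIS1, had 2.29. NBAS lay below GEN1 and SMC6, and MEIS1 below LGALSL, CEP68 and FBXO48, so that single genes outside the blocks reached the range of those inside. GEN1 lies within SMC6, CEP68 overlaps RAB1A and MYCN overlaps MYCNOS, so peaks in the shared stretches count for both genes. Against all 1131 other protein-coding chromosome 2 genes of at least 5 kb, 1.15% had at least the density of DDX1 or of MYCN, 7.87% that of MEIS1 and 14.9% that of NBAS.

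The highest peaks in transcript end windows of the genes were compared with those of all genes. A peak in a transcript end window was present in 68.7% of 20033 protein-coding genes, and the highest such pileup had a median of 23 reads over the 13762 genes with one. At least the 73 reads of MYCN were reached by 0.523% of these genes, at least the 63 of DDX1 by 1.58%, at least the 46 of NBAS by 8.40% and at least the 39 of MEIS1, at its inner end, by 15.8%. MYCNOS-3, with 74 reads, stood at 0.501% on the same scale of protein-coding genes. Without strand this peak cannot be assigned to MYCNOS, and with 1 end per gene it was no longer a transcript end peak. Pileups count distinct read positions, at most 100 per strand, and level off at strong sites, so they rank genes only roughly. In RNA from a whole culture, fewer cells with a transcript and less of it per cell cannot be told apart. Among the 50 length neighbours of each gene, none reached the end peak of MYCN, MYCNOS, DDX1 or NBAS, and 8 reached that of MEIS1. For MYCNOS this says little, since only 6 of its 50 noncoding neighbours had any end peak.

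Genes whose products work with those of MYCN, DDX1, NBAS and MEIS1 were read in the same way, beside the 68.7% of all protein-coding genes that had a transcript end peak. No list's share was tested against it. In the MAX network and other MYCN partners, 13 of 13 genes had a transcript end peak, with 18 to 51 reads and a median of 37, all below the 73 of MYCN. MAX, the partner that MYCN needs to bind DNA, had 37 reads, HUWE1 and FBXW7, which mark MYCN for degradation, had 51 and 50, AURKA, the kinase that stabilises it, had 21, and ODC1, a classic target, had 39. MYCL, a paralogue of MYCN, had 18. In the tRNA ligase complex, of which DDX1 is a part, 5 of 5 genes had such a peak, with 19 to 51 reads and a median of 39. RTCB, the ligase itself, had 51.

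For NBAS, 7 of 8 genes of its tether, the SNAREs and UPF1 had an end peak, with 15 to 36 reads and a median of 22, below the 46 of NBAS. ZW10 and RINT1, the other subunits of the tether, had 17 and 15, and SEC22B had none. For MEIS1, 7 of 9 TALE and HOX partners had one, with 8 to 58 reads and a median of 33. PKNOX1 and PBX2 had 58 and 45, above the 39 of MEIS1, its paralogue MEIS2 had 24, and HOXA9 and PKNOX2 had none. HOXA9 had no peak anywhere in the gene. Of the markers of neuroblastoma cells, 9 of 9 had an end peak, with 16 to 114 reads and a median of 48. HAND2 had 46 and GATA3 60, and ISL1, DBH and TH, with 16, 17 and 21, lay below the median of 23 of all genes. Of 6 markers of other cells 2 did, EPCAM with 13 and ALB with 3, and PTPRC, CD3E, PECAM1 and HBB had no peak.

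**Figure D4:**
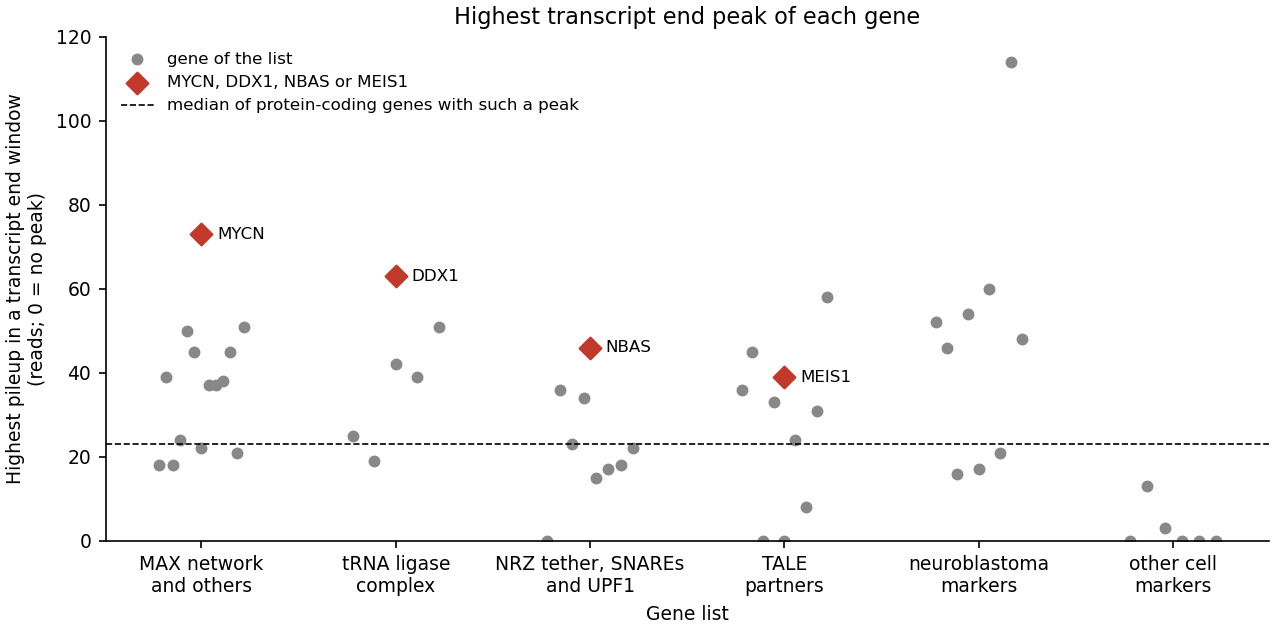
Highest pileup in a transcript end window (reads, 0 where there is no peak) for the genes of 6 lists (grey points, 1 per gene) and for MYCN, DDX1, NBAS and MEIS1 (red diamonds) beside the lists of their partners. The dashed line is the median of 23 reads over protein-coding genes with such a peak. MYCN, DDX1 and NBAS lie above all genes of their lists, and MEIS1 lies below PKNOX1 and PBX2.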

How the data were processed

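Poly(A) 3′-seq libraries (QuantSeq 3′ mRNA REV) of IMR-32 cells were trimmed, mapped to GRCh38 with STAR 2.5.1b, randomly downsampled to the smallest library, merged and given to MACS2 2.1.1 (no control, reads extended to 100 bp) by the authors. The paper also removed called peaks that lacked a listed hexamer upstream and had a genomic A stretch downstream. Whether the deposited list is from before or after that step was not checked here. The peak counts, hexamer shares and A-rich shares depend on it. Libraries had been processed in different batches, which the merged list cannot separate. The deposited fold is the ratio of pileup plus 1 to local background plus 1, the deposited p-value and q-value are −log10 values of a test of the pileup against that background, and the score deposited by the authors is the scaled q-value. Depth per library is not known.

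Pileup and background were solved from the deposited fold and p-value (largest miss 0.000168 on the −log10 scale, next best pileup 0.0780 in the median). Summits were placed by the body of each gene in GENCODE 44, annotated on GRCh38 as the peaks are, plus 600 bp. Classes were transcript end window, exon and intron, in this order. Sequences came from GRCh38. Genes of similar length were the 50 of the same class on chromosome 2 nearest in log length, without the 5 genes. Intervals are exact Poisson or Wilson intervals (95%) for counting error only. Named genes were the 5 genes, the 3 neighbours nearest in density, protein-coding genes within 2 Mb of MYCN or MEIS1, partner lists and cell markers. One cell marker and 1 sequence are not reported here. The 5 genes and all lists were chosen with earlier results of these data known. Python 3.11.15, numpy 2.4.6, pandas 2.3.3, scipy 1.17.1 and matplotlib 3.10.9 were used, and the steps were tested on simulated data. Alternatives changed the peak position, thresholds, merging, windows and neighbours.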

Additional observations from a re-analysis of the deposited data

How the results depend on the processing

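No paired analysis was possible because a single list was called on the merged reads, which also left no replicate to leave out. Of 102 alternative values, 69 stayed within 1.5 times the main count or within the main interval and 33 moved. Changes of direction were not scored. Counts of peaks moved when the −log10 q-value had to be 20 or more, to 2 in MYCN, 2 in MYCNOS, 8 in DDX1, 10 in NBAS and 4 in MEIS1, and in MYCNOS also at 5, to 2. Windows of 100 bp on each side of transcript ends left 1 peak in DDX1 and 5 in NBAS, and 1 end per gene left 0 in MYCNOS, 1 in DDX1, 1 in NBAS and 0 in MEIS1. The share of length neighbours with at least the density of MYCN went from 10.0% to 4.0% at a q-value of 20, and that of MYCNOS from 22% to 0% there and to 62.0% among genes with a transcript end peak. DDX1 stayed at 0% in every alternative, NBAS reached 1.00% with 100 neighbours and MEIS1 4.0% at a q-value of 20.

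The ratio of intergenic density to chromosome 2 went from 5.47 around MYCN and 9.75 around MEIS1 to 3.92 and 5.35 with 2 Mb on each side, to 11.3 and 14.7 with 10 kb around every gene left out, to 3.18 and 6.69 with only protein-coding genes left out, and to 6.85 and 12 at a q-value of 5. The MYCN bin came 10th of 373 with 500 kb bins and 56th of 724 with only protein-coding genes left out. A-rich shares followed the definition, with 75.8% in NBAS and 78.0% in MEIS1 at 6 of 10 bases, 34.3% and 41.5% at 8 of 10, and 0% and 7.32% downstream of the summit, where chromosome 2 had 79.9%, 51.1% and 3.75%. The gap that bounds a block was varied after the data were seen. With 50 kb the block of MYCN shrank to 15808607 to 15981418, without DDX1 and NBAS, with 153 per Mb, and with 200 kb it had 169, while the block of MEIS1 stayed at 202. The cause of these shifts was not tested beyond what each alternative changes by construction.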

Other observations

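Other transcription units of the blocks ranged from many peaks to none. In the block of MEIS1, the noncoding genes LINC01828 and LINC01829, which overlap on opposite strands, held 95 and 113 peaks in 225 and 275 kb, or 4.21 and 4.11 per 10 kb, with highest end pileups of 25 and 65 reads. Peaks in their overlap count for both. LINC01798, which starts just past MEIS1 on the same strand, held 49 peaks, or 3.11 per 10 kb, and LINC01797, antisense to it, held 5. In the block of MYCN, LRATD1 held 14 peaks, with an end pileup of 54 reads, and an unnamed noncoding gene (ENSG00000287291) held 74 peaks in 286 kb. Between DDX1 and MYCN, LINC01804 held 2 peaks in 53.6 kb, and MYCNUT held 1. In the block of MEIS1, LINC02831 held 1 peak in 58.5 kb and ENSG00000235495 held 3 in 118 kb, or 0.169 and 0.252 per 10 kb. In all, 14 of 18 annotated genes touching the block of MYCN and 13 of 20 touching that of MEIS1 held a peak, with a single peak in 5 and 2 of them.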
